A study of Mus musculus with 6 samples.

Results

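The 29 genes described here carry the cell's response to interferon (14 genes) and the display of antigen on major histocompatibility complex (MHC) class I (11 genes) and class II (4 genes). They were chosen by name, and they are 29 of the 28324 genes in the table. Each of them had at least 1 unique molecular identifier (UMI, a tag that marks 1 captured transcript), with totals that ran from 66 UMIs for Oas1a to 15301 UMIs for B2m. The cells came from dissociated hippocampi of 6 mice at 10 weeks of age, profiled by Drop-Seq, in which cells and barcoded beads meet in droplets and transcripts are counted from their 3′ ends. All 6 mice were APP/PS1 mice of the strain B6.Cg-Tg(APPswe,PSEN1dE9)85Dbo/Mmjax, which carries transgenes for mutant human amyloid precursor protein and presenilin 1, so no mouse without these transgenes is in the comparison. Of these, 3 were treated with an antisense oligonucleotide (ASO) and 3 with phosphate buffered saline (PBS). The series title names reduction of IDOL, the ubiquitin ligase encoded by Mylip, and the labels used here give no dose, route or control oligonucleotide. An effect of the target and an effect of any oligonucleotide therefore cannot be told apart in these groups.

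After removal of called doublets, 12616 cells in 17 cell classes named by the authors remained. There were 2822, 2099 and 1751 cells in ASO mice, against 1821, 2013 and 2110 cells in PBS mice. The libraries held 2005768 to 3150332 UMIs in ASO mice and 2127919 to 2433090 UMIs in PBS mice, and no cell had more than 1999 UMIs. Of 12811 barcodes, 8 occurred in more than 1 mouse. Each of the 9 classes with a marker list of its own was highest for that list. Mylip was at 38.7, 30.2 and 33.9 CPM (a count scaled to the total UMIs of the library) in ASO libraries, against 60.2, 70.0 and 74.8 CPM in PBS libraries.

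Interferons of type I bind a receptor whose kinases activate STAT2. With IRF9 it enters the nucleus and binds the interferon-stimulated response element (ISRE), a DNA motif in the promoters of antiviral genes. The same signal raises MHC class I, which most nucleated cells use to show peptides from their own proteins to CD8 T cells, while class II is made by macrophages, dendritic cells and B cells and shows peptides from engulfed material to CD4 T cells. In the brain, microglia are the resident macrophages of the tissue, and further macrophages line the vessels and meninges. Interferon-responsive microglia are a state that has been described in amyloid-bearing mouse brain.

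The promoter sequences are shown for the members that hold the ISRE motif. A RefSeq promoter window (GRCm38.p6) was found for 22 of the 29 genes. The ISRE was searched as GAAANNGAAA on both strands of the 250 bases before the start. It was present in 8 of 22 members (36.4%), against 821 of 27025 promoters in all (3.04%). The matches lay in 6 of 11 interferon response genes, 2 of 9 class I genes and 0 of 2 class II genes. The gamma-activated site, searched as TTCNNNGAA on both strands, was present in 4 of 22 members (18.2%), against 7.18% of all promoters, and it shares bases with the ISRE matches in Bst2. The stretches below surround the ISRE matches that lie outside the annotated gene, with the matched bases in capitals. Each is written 5′ to 3′ on the strand of its gene, and a match on the opposite strand reads TTTC first.
B2m, chr2:122147533-122147572, plus strand: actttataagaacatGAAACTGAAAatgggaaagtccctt
Isg15, chr4:156200860-156200911, minus strand: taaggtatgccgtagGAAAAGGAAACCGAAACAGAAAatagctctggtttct
Oas1a, chr5:120907526-120907560, minus strand: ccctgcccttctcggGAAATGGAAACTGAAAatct
Bst2, chr8:71537572-71537617, minus strand: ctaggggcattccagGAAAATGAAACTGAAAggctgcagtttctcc
Stat2, chr10:128270261-128270300, plus strand: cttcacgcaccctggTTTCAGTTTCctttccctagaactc
Ifit3, chr19:34583358-34583397, plus strand: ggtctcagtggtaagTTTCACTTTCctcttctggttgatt
Ifit3, chr19:34583392-34583431, plus strand: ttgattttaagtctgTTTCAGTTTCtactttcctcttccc
Ifit1, chr19:34640770-34640828, plus strand: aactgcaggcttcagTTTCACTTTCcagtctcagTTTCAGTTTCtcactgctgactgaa
Isg15 held 3 overlapping matches, Oas1a and Bst2 held 2 overlapping matches each, and Ifit1 and Ifit3 held 2 separate matches each. A match is a description of the letters and was not tied here to binding. By position, 12 of the 29 genes lay on chromosome 17 between 33915899 and 36032855, in and beside the mouse MHC. The 3 Ifit genes lay side by side on chromosome 19 between 34550694 and 34650009 (GENCODE vM21, GRCm38).

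Levels are given as CPM of all UMIs of a class in a mouse, as the mean ± SD over the 6 mice. Since the authors named the classes from the same expression data, differences between classes are described and not tested. Among classes with at least 400 cells most interferon genes were highest in endothelial cells, and class I was shared by endothelial cells and microglia. Class II belonged to a small number of cells in the microglia and macrophage class (1 class in the table, 1852 cells, against 1809 endothelial cells). The 13 interferon genes other than Ifitm3 summed to 566 CPM in the 108 fibroblast-like cells. The sum was 934 CPM in endothelial cells and 486 CPM in microglia and macrophages. Class I summed to 2680 CPM in fibroblast-like cells, 5089 CPM in endothelial cells and 7115 CPM in microglia and macrophages. Of the 7 classes with at least 400 cells, the highest mean level was in endothelial cells for 18 members, in microglia and macrophages for 10, and in polydendrocytes, the oligodendrocyte precursors, for 1. For 10 of the 29 genes the 6 mice of the highest class lay wholly above the 6 mice of the next. Compared within each mouse, 6 genes were higher in microglia and macrophages in all 6 mice, 12 were higher in endothelial cells in all 6 mice, and 11 were mixed.

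**Figure D1:**
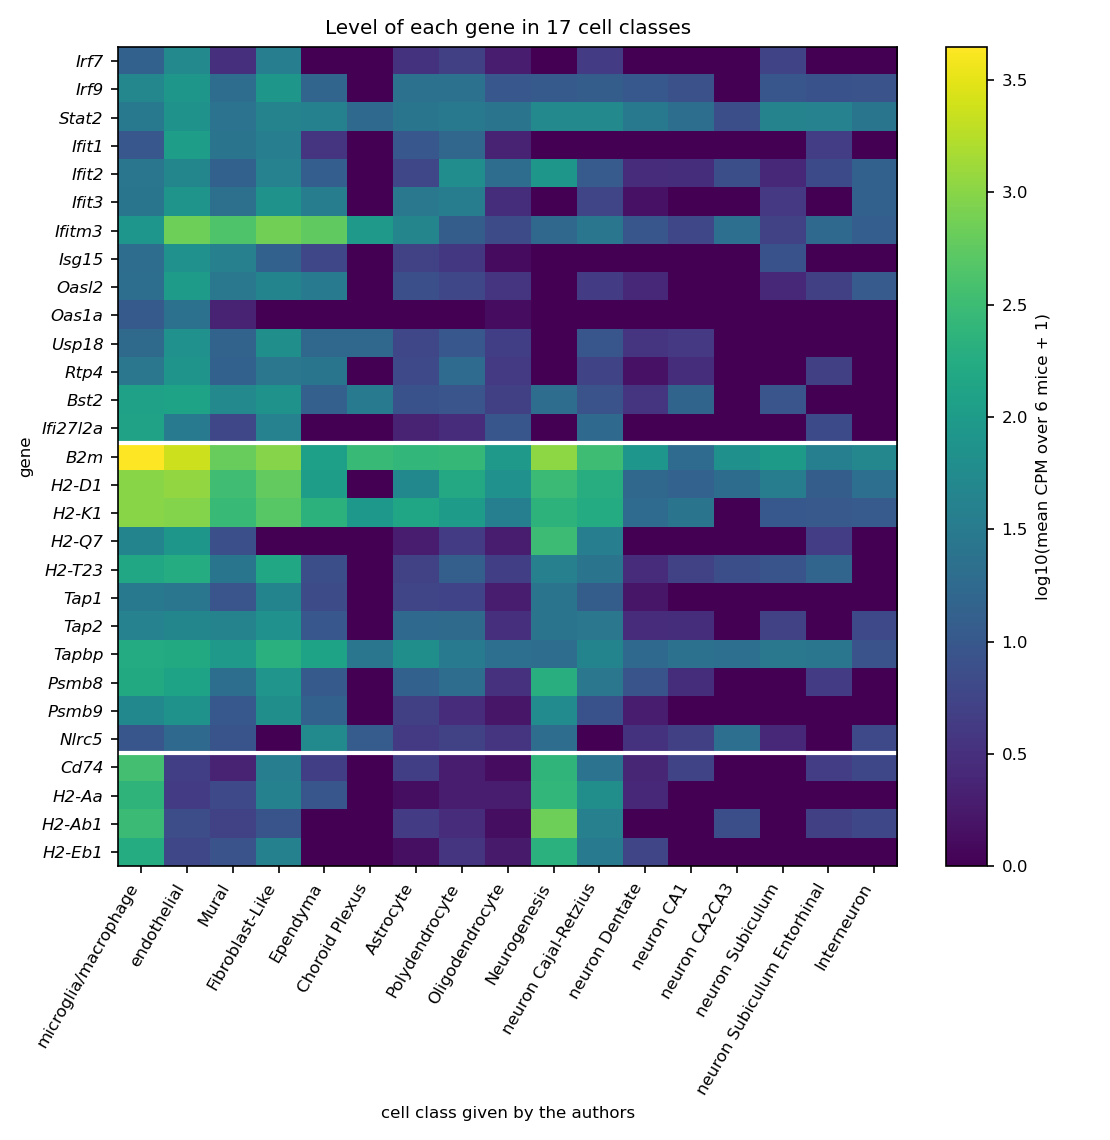
Mean level of each gene (rows) in each cell class (columns), as log10 of the mean CPM over 6 mice plus 1; white lines part the interferon response, class I and class II genes. Class I genes are bright in both microglia and endothelial cells, and most interferon genes are brightest in endothelial cells. Class II genes are bright in microglia and, from a single cell of ASO replicate 2, in the class named Neurogenesis. That cell holds all 87 class II UMIs of the 40 cells in its class.

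Among the transcription factors, Irf7, the factor that amplifies interferon production, was at 12.6 ± 6.23 CPM in microglia and macrophages and 51.1 ± 13.5 CPM in endothelial cells. Irf9, the DNA-binding partner of STAT2, was at 47.7 ± 18.1 CPM in microglia and macrophages and 84.2 ± 22.6 CPM in endothelial cells, and the ranges of the mice overlapped. Stat2 was at 28.9 ± 14.3 CPM in microglia and macrophages and 74.7 ± 18.3 CPM in endothelial cells, and these classes together held 42.5% of its UMIs, against 86.4% of those of Irf7.

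Of the 11 induced effectors, 9 were higher in endothelial cells in all 6 mice. Ifit1, which binds foreign RNA by its cap, was at 8.84 ± 7.65 CPM in microglia and macrophages and 107 ± 44.0 CPM in endothelial cells, which held 73.9% of its UMIs. Isg15, a ubiquitin-like modifier, was at 19.1 ± 15.2 CPM in microglia and macrophages and 70.0 ± 19.3 CPM in endothelial cells. Usp18, which removes ISG15 from proteins and dampens receptor signalling, was at 17.01 ± 6.91 CPM in microglia and macrophages and 69.8 ± 17.6 CPM in endothelial cells. All 3 were higher in endothelial cells in each of the 6 mice.
Oasl2, of the oligoadenylate synthetase family, was at 19.8 ± 7.88 CPM in microglia and macrophages and 98.1 ± 23.6 CPM in endothelial cells. Oas1a, an enzyme of the same family, was the sparsest member and was at 9.68 ± 5.21 CPM in microglia and macrophages and 22.6 ± 5.84 CPM in endothelial cells. Rtp4, another interferon-induced gene, was at 27.0 ± 25.6 CPM in microglia and macrophages and 76.4 ± 23.6 CPM in endothelial cells. The SD of Rtp4 in microglia and macrophages comes from ASO replicate 2, at 77.6 CPM, while the other 5 mice lay between 6.74 and 24.6 CPM.

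Ifitm3, a membrane protein that blocks virus entry from endosomes, reached beyond the endothelium. It was at 80.9 ± 38.1 CPM in microglia and macrophages, 704 ± 56.3 CPM in endothelial cells, 438 ± 104 CPM in mural cells, 571 ± 135 CPM in ependymal cells and 737 ± 346 CPM in fibroblast-like cells. In dentate granule neurons it was at 8.35 ± 8.26 CPM, with a UMI in 0.980% of cells. Ifit2 had its highest level of the larger classes in polydendrocytes, at 60.2 ± 25.9 CPM, against 45.7 ± 21.3 CPM in endothelial cells, 25.7 ± 15.1 CPM in microglia and macrophages and 19.03 ± 8.93 CPM in oligodendrocytes, and the ranges of polydendrocytes and endothelial cells overlapped. Ifit3 was at 33.4 ± 23.6 CPM in polydendrocytes and 2.002 ± 1.96 CPM in oligodendrocytes, against 76.8 ± 57.0 CPM in endothelial cells.
Bst2, or tetherin, which holds budding virus at the cell surface, was at 120 ± 31.0 CPM in microglia and macrophages and 128 ± 23.8 CPM in endothelial cells, and was mixed over the mice. Ifi27l2a, an interferon-inducible membrane protein, was the only interferon gene of the 14 that was higher in microglia and macrophages in all 6 mice. Its level there was 124 ± 78.6 CPM, against 29.6 ± 12.95 CPM in endothelial cells.

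Class I chains were abundant in both immune and vascular cells. B2m, the light chain of every class I molecule, was at 4438 ± 756 CPM in microglia and macrophages, with a UMI in 92.1% of cells, and at 2318 ± 341 CPM in endothelial cells, with a UMI in 83.8% of cells. It was higher in microglia and macrophages in all 6 mice. In dentate granule neurons, whose median depth of 1195 UMIs per cell was above the 985.5 of microglia and macrophages and the 1026 of endothelial cells, B2m had a UMI in 8.11% of cells and a level of 82.2 ± 25.7 CPM. The lowest level was in CA1 neurons, at 17.6 ± 18.5 CPM with a UMI in 2.46% of cells and a median depth of 1152 UMIs. Choroid plexus markers, which neurons should lack, had a UMI in 74.0% of dentate cells and 81.75% of CA1 cells, so free RNA was widespread. The part of free RNA in the low neuronal levels of B2m was not tested. In astrocytes it was at 258 ± 25.7 CPM, in polydendrocytes at 268 ± 91.5 CPM and in oligodendrocytes at 91.2 ± 25.3 CPM.
The classical heavy chains were level between the vascular and the immune class. H2-D1 was at 1012 ± 101 CPM in microglia and macrophages and 1121 ± 117 CPM in endothelial cells, and H2-K1 was at 1011 ± 111 CPM in microglia and macrophages and 928 ± 197 CPM in endothelial cells. The nonclassical chains leaned to the endothelium, with H2-Q7 at 43.8 ± 15.8 CPM in microglia and macrophages and 84.8 ± 26.5 CPM in endothelial cells. H2-T23 was at 148 ± 37.1 CPM in microglia and macrophages and 181 ± 30.2 CPM in endothelial cells. These chains belong to a family of close copies. H2-K1 transcripts share 15% of their 30-base stretches with those of H2-D1, and H2-Q7 shares 23.9% with H2-Q6, so the split of counts within the family is uncertain. The same holds for Ifit3, which shares 62.5% of these stretches with Ifit3b, and for Oas1a, which shares 68.6% with Oas1g.

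The genes that supply class I with peptide were near equal in the same classes. Tapbp, or tapasin, which loads peptide onto class I, was at 174 ± 35.1 CPM in microglia and macrophages and 165 ± 40.8 CPM in endothelial cells. The peptide transporter subunits were at 28.6 ± 8.07 CPM (Tap1) and 40.8 ± 6.69 CPM (Tap2) in microglia and macrophages, against 26.4 ± 6.54 CPM (Tap1) and 45.8 ± 8.64 CPM (Tap2) in endothelial cells. Psmb8 and Psmb9 encode catalytic subunits of the immunoproteasome. Psmb8 was at 161 ± 27.1 CPM in microglia and macrophages and 131 ± 22.2 CPM in endothelial cells. Psmb9 was at 49.9 ± 15.5 CPM in microglia and macrophages and 71.6 ± 12.9 CPM in endothelial cells. Nlrc5, the transactivator of class I genes, had 96 UMIs in all and was at 8.45 ± 5.599 CPM in microglia and macrophages and 16.5 ± 6.49 CPM in endothelial cells. Every gene named in this paragraph had overlapping ranges of mice between these classes.

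Class II UMIs lay mostly in the microglia and macrophage class, which held 2086 of 2330 class II UMIs (89.5%). Cd74 is the invariant chain that guards the class II groove. It was at 251, 233 and 428 CPM in ASO mice and 670, 451 and 151 CPM in PBS mice of that class. H2-Aa, the alpha chain of I-A, was at 188, 121 and 203 CPM in ASO mice and 404, 438 and 43.0 CPM in PBS mice. H2-Ab1, its beta chain, was at 236, 199 and 382 CPM in ASO mice and 465, 497 and 51.1 CPM in PBS mice. H2-Eb1, the beta chain of I-E, was at 165, 96.9 and 172 CPM in ASO mice and 313, 309 and 24.2 CPM in PBS mice. For all 4 genes PBS replicates 1 and 2 were the 2 highest mice and PBS replicate 3 the lowest, so the groups overlapped.

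These UMIs came from few cells. Of 1852 cells of the class, 1681 had no class II UMI, 90 had 1, and 46 had 5 or more, and those 46 cells (2.48%) held 91.2% of the class II UMIs of the class. The cut at 5 UMIs lies in a sparse stretch, with 9 cells at 4 UMIs, 1 cell at 5, 2 cells at 6 and 42 cells at 10 or more, up to 118. Cells with 5 or more made up 12 of 440, 3 of 201 and 9 of 297 cells in ASO mice, against 9 of 272, 10 of 289 and 3 of 353 cells in PBS mice. As shares these were 2.42% ± 0.815 in ASO mice and 2.54% ± 1.47 in PBS mice (SD, n = 3 each), and the groups overlapped. Exact binomial 95% intervals, which cover counting error only, ran from 0.309% to 4.3% for ASO replicate 2 and 1.40% to 5.67% for ASO replicate 3, the lowest and highest ASO mice. They ran from 0.176% to 2.46% for PBS replicate 3 and 1.67% to 6.27% for PBS replicate 2, the lowest and highest PBS mice. When these cells were left out, the summed class II level that remained was 81.8, 128 and 102 CPM in ASO mice and 77.5, 81.7 and 111 CPM in PBS mice, a comparison that the choice of cells by the same UMIs evens out by construction.

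**Figure D2:**
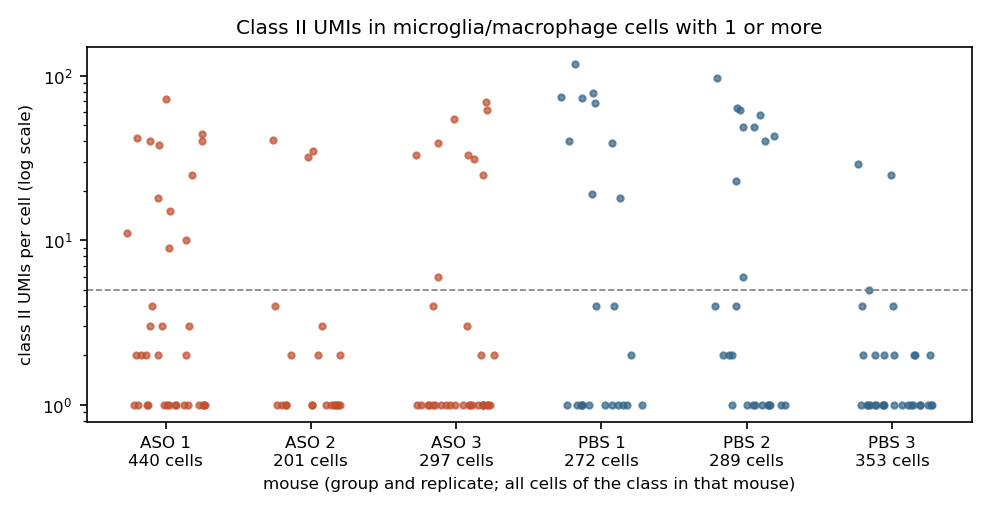
Class II UMIs (Cd74, H2-Aa, H2-Ab1 and H2-Eb1 summed; log scale) of each microglia and macrophage cell with at least 1 such UMI, by mouse, with the number of cells of the class under each mouse; the dashed line marks 5 UMIs. In every mouse 1 UMI is the most frequent count, few cells lie just under or on the line, and a separate group reaches 72 UMIs in ASO mice and 118 UMIs in PBS mice.

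The class II cells differed from the rest of their class in marker genes. A UMI of a border macrophage marker (Mrc1, Pf4, Cd163, F13a1, Lyve1, Ms4a7 or Cbr2) was found in 63.0% of the 46 cells, against 5.12% of the 1681 cells without class II. Mrc1, the mannose receptor, was found in 37.0% of the 46 cells, against 2.62% of the cells without class II, and Ms4a7 in 39.1% of the 46 cells, against 2.44%. Ccr2, a receptor of blood monocytes, was found in 13.04% of the 46 cells, against 0.833%. P2ry12, a receptor of resting microglia, was found in 15.2% of the 46 cells, against 69.7%, and Tmem119 in 13.04%, against 36.3%. A dendritic cell marker was found in 28.3% of the 46 cells, against 76.9%, a share set mainly by Siglech, which microglia also express (19.6%, against 75.0%), while Xcr1, a receptor of conventional dendritic cells, was found in 6.52% of the 46 cells, against 0.0595%. Lymphocyte markers were found in 0 of the 46 cells, which allows a share of up to 6.52% of cells with such a UMI and does not bound the share that expresses these sparse genes. Of the 25 members outside class II, 23 were also seen more often in the 46 cells, which were deeper, and Usp18 (0%, against 1.67%) and Irf9 (4.35%, against 4.64%) were not. Scaled to all UMIs of the pooled cells, some of the 23 were lower in the 46 cells. These were B2m (4074.5 CPM, against 4252 CPM), Tapbp (164 CPM, against 178 CPM) and Tap2 (36.5 CPM, against 40.8 CPM). The rest of the 23 were higher. Some of the 23 rest on few cells, with Ifit1, Irf7 and Isg15 each in 1 of the 46 cells. The share of all genes seen more often in the 46 cells was not taken. Shares of the members differed widely, with Ifitm3 in 37.0% of the 46 cells, against 4.94%, Ifi27l2a in 26.1%, against 6.54%, H2-D1 in 93.5%, against 53.4%, and Tapbp in 17.4%, against 16%. Median depth was 1154.5 UMIs in the 46 cells and 963 UMIs in the cells without class II. Border macrophage markers, like class II, were lowest in PBS replicate 3, at 309, 630 and 437 CPM in ASO mice and 229, 658 and 135 CPM in PBS mice of the class. Summed class II was at 840, 649.5 and 1185 CPM in ASO mice and 1853, 1695 and 269 CPM in PBS mice. The other mice did not rank alike, since PBS replicate 1 was highest for class II and lower than every ASO mouse for these markers. Ttr, a choroid plexus transcript that was also counted in this class, was at 2317 to 7136 CPM in ASO mice, and at 3379, 5230 and 51.1 CPM in PBS mice. The part of either in the class II values of that mouse was not tested.
Outside the class, 8 cells had 5 or more class II UMIs. A cell named Neurogenesis with 87 class II UMIs and a cell named Cajal-Retzius with 31, both from ASO replicate 2, had 0 UMIs of the 7 microglia markers, 0 of the border macrophage markers and 0 of the neuron markers. The first had 2 UMIs of dendritic cell markers and 1 of monocyte and neutrophil markers, and the second had 1 and 3 of these. In the Neurogenesis class, class I was also uneven, since 10 of 40 cells held its 30 B2m UMIs.

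Some cells held several interferon genes at once. Of the 13 interferon genes other than Ifitm3, at least 3 were found in 44 of 1852 microglia and macrophages (2.38%) and in 152 of 1809 endothelial cells (8.40%), with up to 8 genes in a cell. Among dentate granule neurons 0 of 1122 cells had 3 or more, which allows up to 0.267% of cells with such UMIs and says nothing of cells that express the genes unseen, and among polydendrocytes it was 6 of 945 cells. The 152 endothelial cells held 36.1% of the UMIs of these genes in their class. An endothelial cell with an Ifit3 UMI had an Ifit1 UMI in 29.0% of cases, against 7.30% of endothelial cells without Ifit3, and an Isg15 UMI in 20.2%, against 5.70%. Of 17 other members examined, 16 were seen more often in endothelial cells with Ifit3 than in those without, the exception being Ifi27l2a (2.42%, against 2.85%). In microglia and macrophages all 17 were seen more often in the 28 cells with Ifit3, with Ifit1 in 21.4% of them, against 0.384% of the others. In polydendrocytes, with 30 cells that had Ifit3, 10 of 17 were seen more often. There 0 of 14 cells with Ifit1 had an Ifit2 UMI, against 6.55% of the others, and 14 cells are too few to tell these shares apart. These shares pool mice that differ in level (ASO replicate 2 was highest for Ifit3 in endothelial cells), and cells with more UMIs in all are more likely to show any gene. Neither was adjusted for.
By mouse, cells with at least 3 interferon genes made up 2.5%, 3.48% and 2.36% of microglia and macrophages in ASO mice, against 0.735%, 5.19% and 0.567% in PBS mice. Among endothelial cells they made up 6.16%, 15.2% and 10.8% in ASO mice, against 3.29%, 8.82% and 6.86% in PBS mice. PBS replicate 2 was highest among microglia and macrophages and ASO replicate 2 in the endothelium, and the groups overlapped in both classes. The labels pair no mice, but when mt-Rnr2 UMIs were divided by mt-Cytb UMIs, mice of the same number were neighbours in rank (10.9, 4.49 and 15.9 in ASO mice, 12.9, 7.16 and 16.8 in PBS mice). These sets were read from the same data and are not a pairing in the design. Within these sets the endothelial share was higher in the ASO mouse in 3 of 3, and so was the summed level of the 14 interferon genes, at 1531, 2072 and 1756 CPM in ASO mice and 1401, 1545 and 1521 CPM in PBS mice. In microglia and macrophages the summed level was also higher in the ASO mouse in 3 of 3 sets, at 502, 935 and 585 CPM in ASO mice and 286, 770 and 322.7 CPM in PBS mice, while the share was higher in 2 of 3. The sums and shares were not tested within sets, and the share of all genes with this pattern was not taken. With 3 mice a group and no pairing, an exact two-sided permutation test cannot give a p under 0.1.

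**Figure D3:**
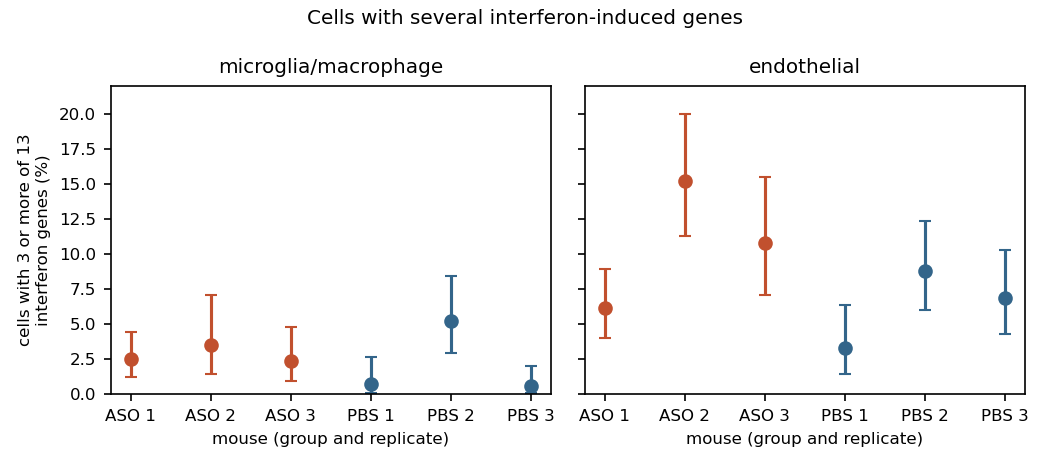
Share of microglia and macrophages (left) and of endothelial cells (right) with UMIs of at least 3 of 13 interferon genes, by mouse, with exact binomial 95% intervals that cover counting error only. PBS replicate 2 is highest in microglia and macrophages, ASO replicate 2 is highest in endothelial cells, and the groups overlap.

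The comparison of treatments asked whether the ASO changed these genes in any class, and no member was called. UMIs were summed per mouse and class, and ASO mice were compared with PBS mice by edgeR's quasi-likelihood test, with Benjamini-Hochberg adjustment over all genes tested in that class. Log2 fold changes are the ASO group over the PBS group, each ± its standard error (SE), and levels from here on are CPM over the tested genes after TMM scaling, n = 3 mice each. None of the 29 genes passed an adjusted p of 0.05 in any class where it was tested or in the whole libraries, with edgeR or with DESeq2, and 10 classes had enough cells to test. In the whole libraries 29 members were tested, 0 were called, 2 had an unadjusted p under 0.05, as did 570 of all genes, and 0.00714% of all genes were called. The members with such a p were Tapbp, at 0.38 ± 0.14, and Usp18, at 0.54 ± 0.21 on the log2 scale. The median log2 fold change of the members was 0.11, against 0.00 for all 14002 genes. In sums over whole libraries, fewer cells of a class and less RNA per cell cannot be told apart. Replicates are separate mice.

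In microglia and macrophages 18 of the 29 genes were tested and 0 were called, against 0.0365% of the 5473 genes tested, and 3 had an unadjusted p under 0.05, as did 302 of all genes. Their median log2 fold change was 0.10, against -0.01 for all genes. Bst2 was at 159, 151 and 172 CPM in ASO mice and 80.7, 148 and 100 CPM in PBS mice, and the groups did not overlap. Its log2 fold change was 0.56 ± 0.23 (edgeR adjusted p = 0.822). Tapbp was at 239, 210 and 228 CPM in ASO mice and 143, 204 and 146 CPM in PBS mice, again without overlap, with a log2 fold change of 0.48 ± 0.20 (edgeR adjusted p = 0.822). These 2 were the members whose mice lay apart with ASO higher, a pattern shown by 5.46% of all genes in that direction, and 0 members lay apart with ASO lower, against 5.57% of all genes. Oligodendrocyte markers in the same class also lay apart, at 1312, 1144 and 1262 CPM of all UMIs in ASO mice and 859, 1057 and 963 CPM in PBS mice, and their part in these values was not tested.
Ifitm3 was at 89.9, 156 and 87.5 CPM in ASO mice and 44.0, 119 and 48.6 CPM in PBS mice (log2 fold change 0.60 ± 0.30). Ifi27l2a was at 92.3, 264 and 154 CPM in ASO mice and 73.4, 215 and 36.4 CPM in PBS mice (log2 fold change 0.58 ± 0.35). Replicate 2 of each group was the high mouse for both genes, and the groups overlapped. Over all alternatives the log2 fold change ranged from 0.36 to 1.17 for Ifitm3 and from 0.12 to 1.54 for Ifi27l2a, which was at 0.12 without PBS replicate 3. The same mice were highest for the summed border macrophage markers, at 630 CPM of all UMIs for ASO replicate 2 and 658 CPM for PBS replicate 2, and the part of this in both genes was not tested. The fourth interferon gene tested, Irf9, had a log2 fold change of 0.18 ± 0.36.
Of the 10 class I genes tested, 6 had positive and 4 negative values. B2m was at 5010, 5392 and 6067 CPM in ASO mice and 3692, 5547 and 4175 CPM in PBS mice, with a log2 fold change of 0.30 ± 0.17. Tap1 (0.40 ± 0.43), Tap2 (0.27 ± 0.35), H2-D1 (0.13 ± 0.16) and H2-K1 (0.08 ± 0.16) had positive log2 fold changes no larger than their SE. The remaining 4 were near 0, with Psmb8 at -0.08 ± 0.21, Psmb9 at -0.04 ± 0.33, H2-Q7 at -0.01 ± 0.35 and H2-T23 at -0.01 ± 0.23.
All 4 class II genes had negative log2 fold changes, of -0.69 ± 0.34 for H2-Aa, -0.45 ± 0.35 for H2-Eb1, -0.42 ± 0.26 for Cd74 and -0.24 ± 0.33 for H2-Ab1 (edgeR adjusted p = 0.883 for H2-Aa). These values depend on single mice and on few cells. Without PBS replicate 3, 3 of 19 members tested were called, all class II and lower in ASO mice. Their log2 fold changes were then -1.23 ± 0.21 for H2-Aa (edgeR adjusted p = 2.07e-05), -1.02 ± 0.22 for H2-Eb1 (edgeR adjusted p = 0.00613) and -0.84 ± 0.19 for Cd74 (edgeR adjusted p = 0.0119). Without PBS replicate 1, the log2 fold change of Cd74 was 0.06, and that of H2-Ab1 was 0.20 without PBS replicate 2. Without the cells that held a border macrophage marker UMI, 3 of the 4 genes had positive values, at 0.35 for H2-Ab1, 0.22 for Cd74 and 0.04 for H2-Eb1. In the same class Mylip was at 189, 221 and 199.6 CPM in ASO mice and 385, 422 and 440 CPM in PBS mice (log2 fold change -1.05 ± 0.18, edgeR adjusted p = 0.00418). In endothelial cells Mylip was at 39.6, 35.1 and 30.4 CPM in ASO mice and 44.3, 34.9 and 36.2 CPM in PBS mice. The groups overlapped there (log2 fold change -0.09 ± 0.38, edgeR unadjusted p = 0.814). The difference of Mylip between these classes was not called (edgeR adjusted p = 0.774).

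**Figure D4:**
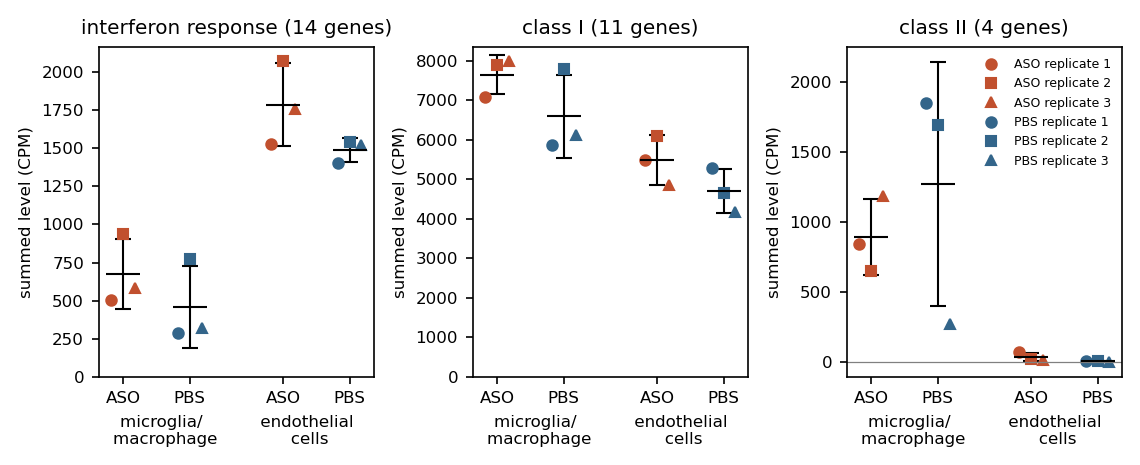
Summed level (CPM of all UMIs) of the interferon response, class I and class II genes in microglia and macrophages and in endothelial cells, by mouse, ASO left of PBS; symbols mark replicates, black lines the mean ± SD of 3 mice. The groups overlap in every pair shown except class II in endothelial cells (70.2, 19.3 and 11.5 CPM in ASO mice, 3.65, 5.26 and 0 CPM in PBS mice). That pair rests on 43 UMIs in all endothelial cells, with 6, 15 and 6 of them in single cells of ASO replicate 1, and was too sparse to test.

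In endothelial cells 21 members were tested and 0 were called, and 0% of the 6220 genes tested were called there. An unadjusted p under 0.05 was found for 4 members and for 255 of all 6220 genes. Of the 21 log2 fold changes, 18 were positive and 3 negative, while 3148 of the 6220 were positive over all genes, with a median of 0.17, against 0.00 for all genes. The members share the same 6 mice, so their signs are not independent of each other. Tapbp was at 213, 236 and 199 CPM in ASO mice and 185, 113 and 151 CPM in PBS mice, with a log2 fold change of 0.55 ± 0.21 (edgeR unadjusted p = 0.0130, adjusted p = 0.9995). Usp18 was at 96.4, 98.4 and 82.4 CPM in ASO mice and 64.5, 49.4 and 72.4 CPM in PBS mice, a log2 fold change of 0.59 ± 0.28. Psmb8 was at 158, 165 and 169 CPM in ASO mice and 133, 137 and 105 CPM in PBS mice, with a log2 fold change of 0.39 ± 0.21. With Ifitm3, these were the 4 members whose mice lay apart with ASO higher, against 4.79% of all genes, and 0 members lay apart with ASO lower, against 4.74% of all genes. The 7 microglia markers lay apart in the same direction in endothelial totals, at 49.8, 54.6 and 65.2 CPM of all UMIs in ASO mice and 29.2, 28.9 and 44.1 CPM in PBS mice, and their part in these values was not tested.
H2-K1 was at 1192, 1367 and 928 CPM in ASO mice and 891, 936 and 839 CPM in PBS mice, with a log2 fold change of 0.39 ± 0.17, and the groups overlapped. For the Ifit genes ASO replicate 2 stood above every other mouse. Ifit1 was at 94.0, 204 and 139 CPM in ASO mice and 64.5, 105 and 105 CPM in PBS mice (log2 fold change 0.61 ± 0.26). Ifit3 was at 42.0, 207 and 73.7 CPM in ASO mice and 40.3, 66.8 and 79.0 CPM in PBS mice (log2 fold change 0.72 ± 0.37), and it was -0.22 without ASO replicate 2. Ifit2 had a log2 fold change of 0.65 ± 0.37.
The other interferon genes tested had smaller values. Isg15 was at 0.37 ± 0.29, Oasl2 at 0.23 ± 0.25, Ifitm3 at 0.16 ± 0.17, Rtp4 at 0.16 ± 0.29, Irf9 at 0.08 ± 0.28 and Bst2 at 0.02 ± 0.23 on the log2 scale. Irf7 (-0.12 ± 0.33) and Stat2 (-0.16 ± 0.28) were negative. The other class I genes tested ranged from -0.05 ± 0.28 for H2-Q7 to 0.22 ± 0.28 for Psmb9, with B2m at 0.17 ± 0.18, H2-T23 at 0.16 ± 0.20, H2-D1 at 0.14 ± 0.17 and Tap2 at 0.04 ± 0.34. The class II genes had 8 to 14 UMIs each in all endothelial cells and were not tested there, and 3 cells of ASO replicate 1 held 6, 15 and 6 of these UMIs.

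**Figure D5:**
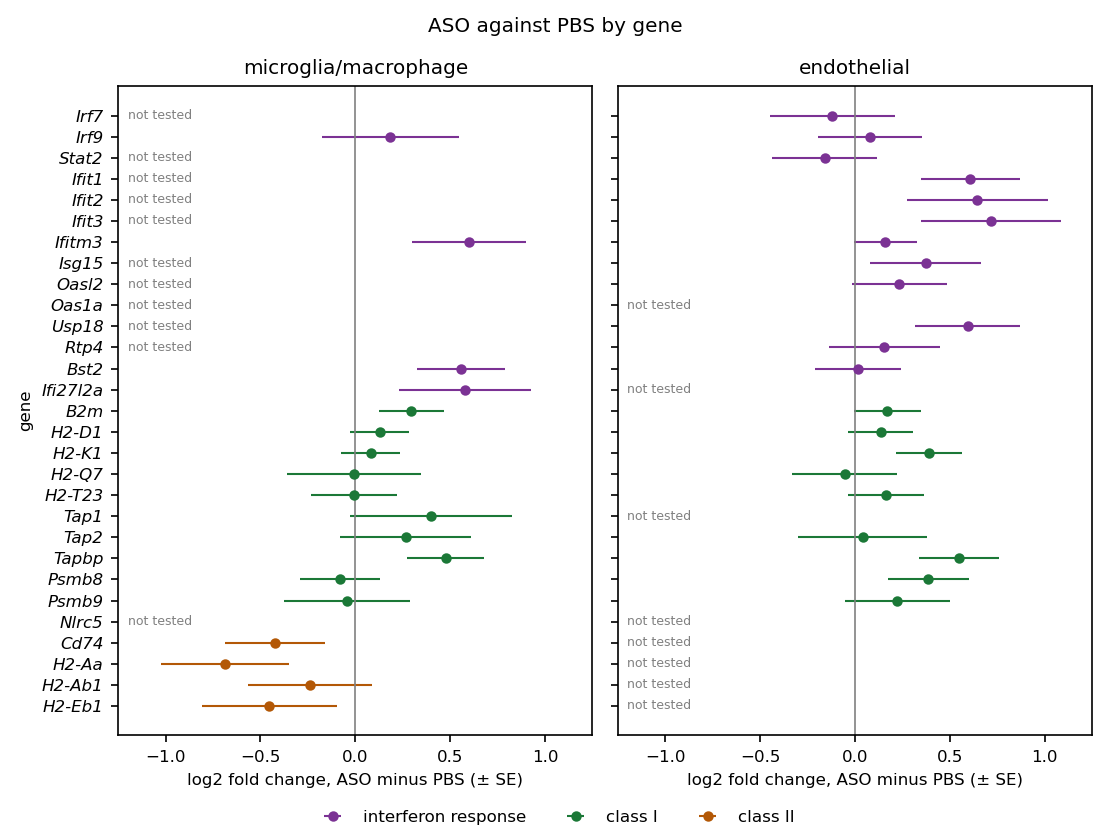
Log2 fold change (ASO minus PBS, points) with its SE (lines) for each gene tested in microglia and macrophages (left) and endothelial cells (right); genes too sparse to test are marked. All 4 class II genes lie below 0 in microglia and macrophages, and 18 of 21 genes lie above 0 in endothelial cells, with no gene past an adjusted p of 0.05.

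Whether the ASO effect differed between the 2 classes was tested as an interaction with mouse as a block. Of 12 members tested in both, 0 differed, against 0.0231% of the 4328 genes tested, and 0 members had an unadjusted p under 0.05. The largest difference of the log2 fold changes, microglia and macrophages minus endothelial cells, was 0.54 ± 0.30 for Bst2 (edgeR adjusted p = 0.931).

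Few members were expressed enough to test in the other classes. In oligodendrocytes 4 members were tested and 0 were called, against 0.238% of all genes there, and 2 had an unadjusted p under 0.05, as did 471 of all 7141 genes. H2-D1 was at 66.4, 46.6 and 53.7 CPM in ASO mice and 105, 74.2 and 102 CPM in PBS mice, with a log2 fold change of -0.73 ± 0.23 (edgeR unadjusted p = 0.00441, adjusted p = 0.298). B2m was at 90.2, 78.3 and 67.7 CPM in ASO mice and 145, 108 and 92.5 CPM in PBS mice, with a log2 fold change of -0.53 ± 0.21. H2-K1, at -0.49 ± 0.29, named here after its values were seen, also had all ASO mice below all PBS mice. These were all 3 class I genes tested in the class, and 5.67% of all its genes lay apart with ASO lower. As CPM of all UMIs the B2m groups overlapped, at 86.2, 74.3 and 64.9 CPM in ASO mice and 137, 99.5 and 85.7 CPM in PBS mice. Choroid plexus markers had a UMI in 81.7% of oligodendrocytes, and the part of free RNA in these low levels was not tested.
In mural cells 4 members were tested and 0 were called, against 0.257% of all genes, and 1 had an unadjusted p under 0.05. B2m was at 834, 983 and 540 CPM in ASO mice and 1044, 1339 and 1236 CPM in PBS mice, with a log2 fold change of -0.59 ± 0.24 (edgeR unadjusted p = 0.0191, adjusted p = 0.444), and 6.03% of all genes lay apart with ASO lower. H2-K1 there was at -0.18 ± 0.33.
In astrocytes 6 members were tested, 0 were called, 0 had an unadjusted p under 0.05, and 0% of all genes were called. B2m was at 289, 321.7 and 299 CPM in ASO mice and 283, 255 and 252 CPM in PBS mice (log2 fold change 0.20 ± 0.17), and 4.66% of all genes lay apart with ASO higher. Ifit3 was at 0.49 ± 0.41. In dentate granule neurons B2m was the member tested, with an unadjusted edgeR p of 0.0738, and 0% of all genes were called. Its values were 106, 146 and 97.3 CPM in ASO mice and 77.8, 60.1 and 90.0 CPM in PBS mice (log2 fold change 0.57 ± 0.31), and 4.48% of all genes lay apart with ASO higher.
In polydendrocytes 4 members were tested and 0 were called, against 0.0447% of all genes, and 1 had an unadjusted p under 0.05. B2m was at 367, 550 and 275 CPM in ASO mice and 275, 285 and 269 CPM in PBS mice (log2 fold change 0.60 ± 0.23), with ASO replicate 2 the high mouse. Ifit2 was at -0.38 ± 0.41. In Cajal-Retzius neurons 3 members were tested, 0 were called, 0 had an unadjusted p under 0.05 and 0% of all genes were called, with H2-D1 at 0.79 ± 0.54 and H2-K1 at 0.66 ± 0.51. No member passed the count filter in CA1 or subiculum neurons.

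Other genes of the same pathways were examined in the 2 classes with the most members tested, and 0 were called there. Of 136 further names listed, 125 were in the table. Only 7 UMIs came from the 9 interferon ligand genes, against 7340 UMIs from the 9 receptor and kinase genes. In microglia and macrophages 62 of these genes were tested, and 0 were called by edgeR or DESeq2, 3 had an unadjusted p under 0.05, and 30 were positive and 32 negative. The lowest p-values were those of Sp100, a nuclear body protein (log2 fold change 0.92 ± 0.40), H2-Q4, a nonclassical class I chain (-0.74 ± 0.36), Trim30a, a ubiquitin ligase family member (0.40 ± 0.20), and Parp12 (-0.71 ± 0.38). In endothelial cells 71 were tested, and 0 were called by edgeR or DESeq2, 6 had an unadjusted p under 0.05, and 49 were positive and 22 negative. The other interferon-induced genes had 31 of 40 positive there, with a median log2 fold change of 0.24. Gbp2, an interferon-induced GTPase, was at 116, 204 and 143 CPM in ASO mice and 88.7, 95.9 and 92.1 CPM in PBS mice (log2 fold change 0.72 ± 0.24, edgeR unadjusted p = 0.00494, adjusted p = 0.9995). Rsad2, or viperin, was at 0.57 ± 0.21, Tgtp2, another GTPase, at 0.70 ± 0.26 and Irf3, a transcription factor of interferon induction, at -0.75 ± 0.36.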

How the data were processed

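Single-cell counts were analysed from 6 hippocampi, 3 of ASO and 3 of PBS mice. The authors deposited a table of UMI counts per gene and cell whose column names carry the mouse and a cell class; STAR 2.5.0c, bcl2fastq and the build mm10 (GRCm38) are named in the submitters' processing notes, while the counting program, its annotation and how the classes were named were not given in the sources used here. As deposited, every cell had at least 501 genes, 569 to 1999 UMIs and at most 14.99% mitochondrial UMIs. Scrublet (scanpy 1.11.5) marked 207 doublets, which were removed. Counts were then summed per mouse and class, for the 10 classes with at least 20 cells in each mouse and for whole libraries, and tested with edgeR 4.0.16 (filterByExpr, TMM, quasi-likelihood, threshold 0.05), with DESeq2 1.42.0 as an alternative. The interaction was fitted with a term for each mouse. The ASO fits of microglia and macrophages and of endothelial cells were tested on simulated data, and the interaction and the other classes were not. Of simulated log2 fold changes of 1 in size, 61.8% were called in microglia and macrophages and 67% in endothelial cells. Of those of 2 in size, 100% were called in each.

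The 29 members, the 7 lists of further pathway genes and the marker lists were chosen with earlier results of these data known. Every member is named with its level; log2 fold changes are given for each member tested in microglia and macrophages and in endothelial cells, for the 2 with the lowest p elsewhere, and for the 4 pathway genes with the lowest p in each of these classes. Replicate numbers follow accession order, and the labels pair no mice. Alternatives were DESeq2 and its size factors, a robust fit, no filter, doublets kept, a mitochondrial limit of 10%, thinned totals, a term for 3 sets of mice with like ratios of mt-Rnr2 to mt-Cytb (which join mice of the same number), leaving out each mouse, and microglia and macrophages without border macrophage marker cells or without cells of 2 or more class II UMIs. Levels per class were also taken as shares of cells with a UMI, before and after thinning to 600 UMIs a cell. Intervals and limits from a count of 0 (3 counts) cover counting error only.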

Additional observations from a re-analysis of the deposited data

Results flagged for a closer look

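The treatment difference of B2m, the class I light chain, took opposite signs in different cell classes with no overlap between mice on the normalised scale. Its log2 fold change was 0.20 in astrocytes and 0.57 in dentate granule neurons, with all 3 ASO mice above all 3 PBS mice in each, and -0.59 in mural cells and -0.53 in oligodendrocytes, with all 3 ASO mice below all 3 PBS mice in each. Of all genes, 4.66% in astrocytes and 4.48% in dentate granule neurons lay apart with ASO higher. In mural cells 6.03% and in oligodendrocytes 5.67% lay apart with ASO lower. As CPM of all UMIs the groups overlapped in oligodendrocytes. B2m was low in dentate granule neurons and oligodendrocytes, where the part of free RNA was not tested. None of these B2m log2 fold changes passed the edgeR test after adjustment, and the difference between these classes was not tested.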

How the results depend on the processing

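Of 52 pairs of a member and a class, 34 kept their direction under every alternative run, and 3 were called under an alternative, all of them class II genes in microglia and macrophages without PBS replicate 3. The members called in microglia and macrophages ranged from 0 to 3 when each mouse was left out. In microglia and macrophages, values near 0 changed sign. With DESeq2 the log2 fold change was 0.0096 for Psmb9, 0.065 for H2-Q7 and 0.019 for H2-T23. With DESeq2 size factors it was 0.00050 for H2-Q7 and 0.0018 for H2-T23, and with no filter 0.0062 for H2-Q7 and 0.0012 for H2-T23. With the mouse sets it was 0.060 for H2-Q7 and 0.030 for H2-T23, with doublets kept 0.018 for Psmb9, and with the limit of 10% 0.023 for H2-T23. With thinned totals it was 0.38 for Psmb9, 0.020 for H2-Q7 and 0.32 for H2-T23. Without border macrophage marker cells it was 0.11 for Psmb9, 0.046 for H2-T23, 0.22 for Cd74, 0.040 for H2-Eb1 and 0.35 for H2-Ab1, and without cells of 2 or more class II UMIs 0.070 for H2-T23 and 0.019 for Cd74. Leaving out each mouse gave -0.095 to 0.59 for Irf9, -0.018 to 0.18 for H2-K1, -0.33 to 0.18 for Psmb9, -0.35 to 0.20 for H2-Q7, -0.22 to 0.21 for H2-T23, -0.26 to 0.035 for Psmb8, -0.84 to 0.056 for Cd74 and -0.78 to 0.20 for H2-Ab1.
In endothelial cells Irf9 was at -0.074 with thinned totals, and Bst2 at -0.0043 with no filter, -0.011 with doublets kept and -0.093 with the limit of 10%. Leaving out each mouse gave -0.18 to 0.37 for Irf9, -0.17 to 0.20 for Tap2, -0.33 to 0.087 for Irf7, -0.30 to 0.17 for Stat2, -0.19 to 0.51 for Rtp4, -0.26 to 0.34 for H2-Q7, -0.13 to 0.22 for Bst2 and -0.22 to 1.19 for Ifit3, and in mural cells -0.48 to 0.081 for H2-K1. The cause of these changes was not tested. The difference in the share of class II cells, ASO minus PBS, was -0.12 percentage points at 5 UMIs, and its sign differed at 2 UMIs and without ASO replicate 2, PBS replicate 1 or PBS replicate 2, settings chosen after seeing the data. The labels give no pairing; with a replicate block for the sets of mice of like mt-Rnr2 to mt-Cytb ratio, 0 members were called in every class tested and in whole libraries. Depth limits the sparse genes, since 11 of the 29 members in microglia and macrophages and 8 in endothelial cells had too few UMIs to test.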
